A study of Rattus norvegicus with 15 samples.

Results

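Unmodified mitochondria and MitoCoat-mRNA were compared as treatments of stressed rat astrocytes, using the 3 RNA-seq libraries of each arm, 6 of the 15 libraries of the study. These libraries were chosen by their sample titles. All 6 came from primary cortical astrocytes that had been exposed to 100 µM H2O2 for 30 min, received their treatment 24 h later and were collected after a further 6 h. The unmodified mitochondria were a mitochondria-enriched fraction of cryopreserved rat placenta. MitoCoat-mRNA was RNA extracted from such a fraction and enclosed in a shell of the cationic and fusogenic lipids DOTAP and DOPE. Beside them, the values of MitoCoat (the same fraction in a coat of these lipids, after H2O2), of H2O2 alone and of the vehicle control without H2O2 are given, with 3 libraries each. The arms differ in the organelle, in the lipid shell and in dose. Mitochondria were dosed by weight per volume of medium, at either of a pair of doses of which the study's methods do not name the one used for sequencing, and MitoCoat-mRNA was dosed by the weight of its RNA. Within this comparison these differences cannot be told apart. The study calls the libraries of a group biological replicates, while the labels do not say whether they came from separate cultures, and p-values measure the spread between these libraries.

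Mitochondria generate most of the ATP of a cell and carry a small genome of their own, while most of their proteins are encoded in the nucleus and translated in the cytosol. Part of this translation takes place on ribosomes at the outer mitochondrial membrane, so an isolated fraction carries messenger RNA on its surface. Astrocytes support neurons metabolically and can take up mitochondria from their surroundings. The comparison addresses which transcripts differed when stressed astrocytes received the whole organelle preparation in place of its encapsulated RNA.

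The total count per library was 38611887 to 46672179 in the 6 libraries compared and 35315654 to 46778663 in all 15. The files list 32552 genes of the Rnor6.0 assembly by Ensembl identifier and do not pair them with symbols. None of the identifiers matched the reference table used here (0 of 32552), so genes are described by position and structure, and astrocyte markers and pathway lists were not analysed here. In bulk RNA, fewer cells of a type and less RNA per cell cannot be told apart. In the same way, counts of RNA brought in with the mitochondria and counts of RNA made by the astrocytes cannot be told apart, since both come from rat.

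Of 15574 genes that passed the filter on low counts, 334 were higher (2.14%) and 220 were lower (1.41%) with unmodified mitochondria than with MitoCoat-mRNA, at a Benjamini-Hochberg adjusted p under 0.05 in edgeR's quasi-likelihood test, which makes 554 genes in either direction (3.56%). That test did not pair libraries by number. When libraries of one number were paired in the fit (replicate block), 652 genes were higher and 489 lower. DESeq2 called 504 higher and 405 lower on the same 6 libraries. With an offset for each library's trend with gene length, 300 were higher and 329 lower, so that the share of higher genes among the calls went from 60.3% to 47.7%. The counts also depended on single libraries: 176 and 117 genes were called without mitochondria replicate 1, 214 and 119 without mitochondria replicate 2, and 175 and 95 without MitoCoat-mRNA replicate 2. The fold change of no called gene took the other sign in these settings, which the choice of genes whose arms do not overlap fixes in part. Of the called genes, 130 higher and 86 lower were called in every alternative.

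The increases reached further than the decreases. Of the 334 higher genes, 154 were over 2-fold, and for 104 of them the whole 95% interval of the fold change lay beyond 2-fold. There were 72 genes between 2-fold and 4-fold, 42 between 4-fold and 8-fold, and 40 over 8-fold. The last include 10 genes with 0 counts in all 3 MitoCoat-mRNA libraries, for which the fitted value depends on the prior count; measured against 3 counts per library they were at least 8.59-fold to 30.6-fold higher, which left these numbers and the median as they are. With a limit of 6 counts the bounds were 4.30-fold to 15.3-fold and 32 genes were over 8-fold. The widest classes also held genes that were almost without counts with MitoCoat-mRNA, which passed the filter through the mitochondria libraries and had to differ to be tested. Of the 334 higher genes, 35 would not have passed by the MitoCoat-mRNA libraries alone, and among the other 299 there were 119 over 2-fold, 33 between 4-fold and 8-fold and 14 over 8-fold, with the interval beyond 2-fold for 69. Of the 220 lower genes, 34 fell over 2-fold, 3 fell over 4-fold and 0 fell over 8-fold, and the interval lay beyond 2-fold for 12. Without the 1 lower gene that passed through the MitoCoat-mRNA libraries alone these numbers were 33, 2, 0 and 11. The median log2 fold change was 0.92 among the higher genes and -0.62 among the lower genes, against 0.00 over all tested genes. All 554 called genes had 3 libraries of one arm above the 3 of the other, which was true of 3020 of all tested genes (19.4%), 1634 with mitochondria higher (10.5%) and 1386 with mitochondria lower (8.9%).

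**Figure D1:**
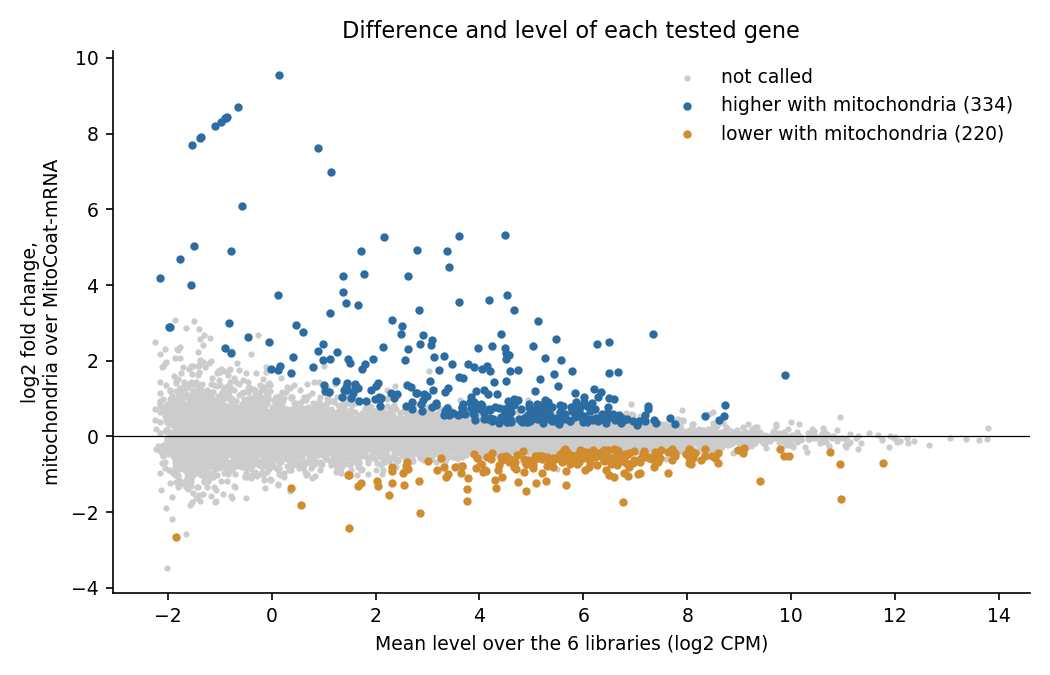
Each point is 1 of the 15574 tested genes, with its mean level over the 6 libraries in log2 CPM on the x axis and the log2 fold change of mitochondria over MitoCoat-mRNA on the y axis; blue points are the 334 higher and orange points the 220 lower genes. Blue points reach above 8 on the log2 scale at low levels, whereas no orange point lies below -3.

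ENSRNOG00000033220 (chr12:41227825-41307352, minus strand, 18 exon blocks) had the largest increase among genes with counts in every MitoCoat-mRNA library, and it was singled out after its values had been seen. Its level, in counts per 1000000 counts after TMM normalization (CPM), was 43.4, 48.3 and 40.2 in the 3 mitochondria libraries and 1.35, 1.03 and 0.913 in the 3 MitoCoat-mRNA libraries. The arms were far apart, and each was tight. The difference was 5.33 ± 0.155 on the log2 scale (SE, edgeR adjusted p = 1.67e-07), or 40.2-fold. In MitoCoat the level was 42.0 ± 12.2 CPM (SD, n = 3), against 1.32 ± 0.492 with H2O2 alone and 2.49 ± 0.338 in controls.

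ENSRNOG00000016871 (chr17:39188311-39463715, plus strand, 14 exon blocks) had the largest fitted increase of all. It had 142, 105 and 20 counts in the mitochondria libraries and 0 in each MitoCoat-mRNA library. The mean of 2.17 ± 1.63 CPM was at least 30.6-fold higher than a level of 3 counts per library, which is the upper limit for a count of 0. It passed the filter through the mitochondria libraries alone, so its call in edgeR adds no support and no p is given. Most low counts in these files are even, and if 1 fragment gives 2 counts, this limit is 6 counts and the bound 15.3-fold. It also had 0 counts in all 6 control and H2O2 libraries, whereas the MitoCoat libraries had 561, 344 and 64 counts. Replicate 3 was the lowest library in both organelle arms, at 0.137 times the mean of the other 2 mitochondria libraries.

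ENSRNOG00000000952 (chr12:9605873-9607168, minus strand, 2 exon blocks) had the most negative change among called genes with a mean of at least 1 CPM. Its level was 0.617, 0.878 and 1.11 CPM with mitochondria and 3.70, 5.38 and 4.86 CPM with MitoCoat-mRNA. The groups did not overlap, and the log2 difference was -2.41 ± 0.280 (SE, edgeR adjusted p = 0.00115). The level with MitoCoat was 0.722 ± 0.431 CPM, whereas it was 5.37 ± 0.896 with H2O2 alone and 10.6 ± 2.11 in controls. Both organelle arms thus lay farther from the control mean than MitoCoat-mRNA did.

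ENSRNOG00000014361 (chr17:22137324-22143324, minus strand, 5 exon blocks) came next, with 1.44, 2.77 and 4.26 CPM in the mitochondria libraries and 11.7, 11.2 and 11.5 CPM in the MitoCoat-mRNA libraries. The spread lay within the mitochondria arm, since the MitoCoat-mRNA libraries were almost equal. The log2 difference was -2.01 ± 0.302 (SE, edgeR adjusted p = 0.0051). This gene, ENSRNOG00000000952 and ENSRNOG00000033220 kept their direction and their call in every alternative.

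Abundant genes differed too, and 4 of them, chosen by level after the values had been seen, are given by position alone. The most abundant higher gene (chr19:14508616-14515456) stood at 1364, 1459 and 1462 CPM with mitochondria and at 482, 417 and 485 CPM with MitoCoat-mRNA, a 3.11-fold difference (edgeR adjusted p = 4.54e-06). With H2O2 alone it was 472 ± 55.9 and in controls 243 ± 18.6 CPM, so the MitoCoat-mRNA arm lay at the level of H2O2 alone. Of the higher genes over 8-fold, the most abundant (chr1:214248837-214252456) went from 7.48 ± 1.01 CPM with MitoCoat-mRNA to 61.8 ± 6.57 with mitochondria (edgeR adjusted p = 1.46e-06).

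The most abundant lower gene (chr3:109862117-109873466) stood at 2592, 2844 and 2541 CPM with mitochondria and 3599, 4954 and 4341 CPM with MitoCoat-mRNA. Its log2 difference was -0.69 ± 0.112 (SE, edgeR adjusted p = 0.00761). The means were 2659 ± 162 and 4298 ± 678 CPM (SD, n = 3), and the arms did not overlap. Among lower genes over 2-fold, the most abundant (chr1:21851660-21854773) stood at 788, 967 and 1121 CPM with mitochondria against 2887, 3255 and 2880 CPM with MitoCoat-mRNA (edgeR adjusted p = 5.6e-05). With H2O2 alone this gene was at 2977 ± 212 CPM and in controls at 2509 ± 364 CPM.

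**Figure D2:**
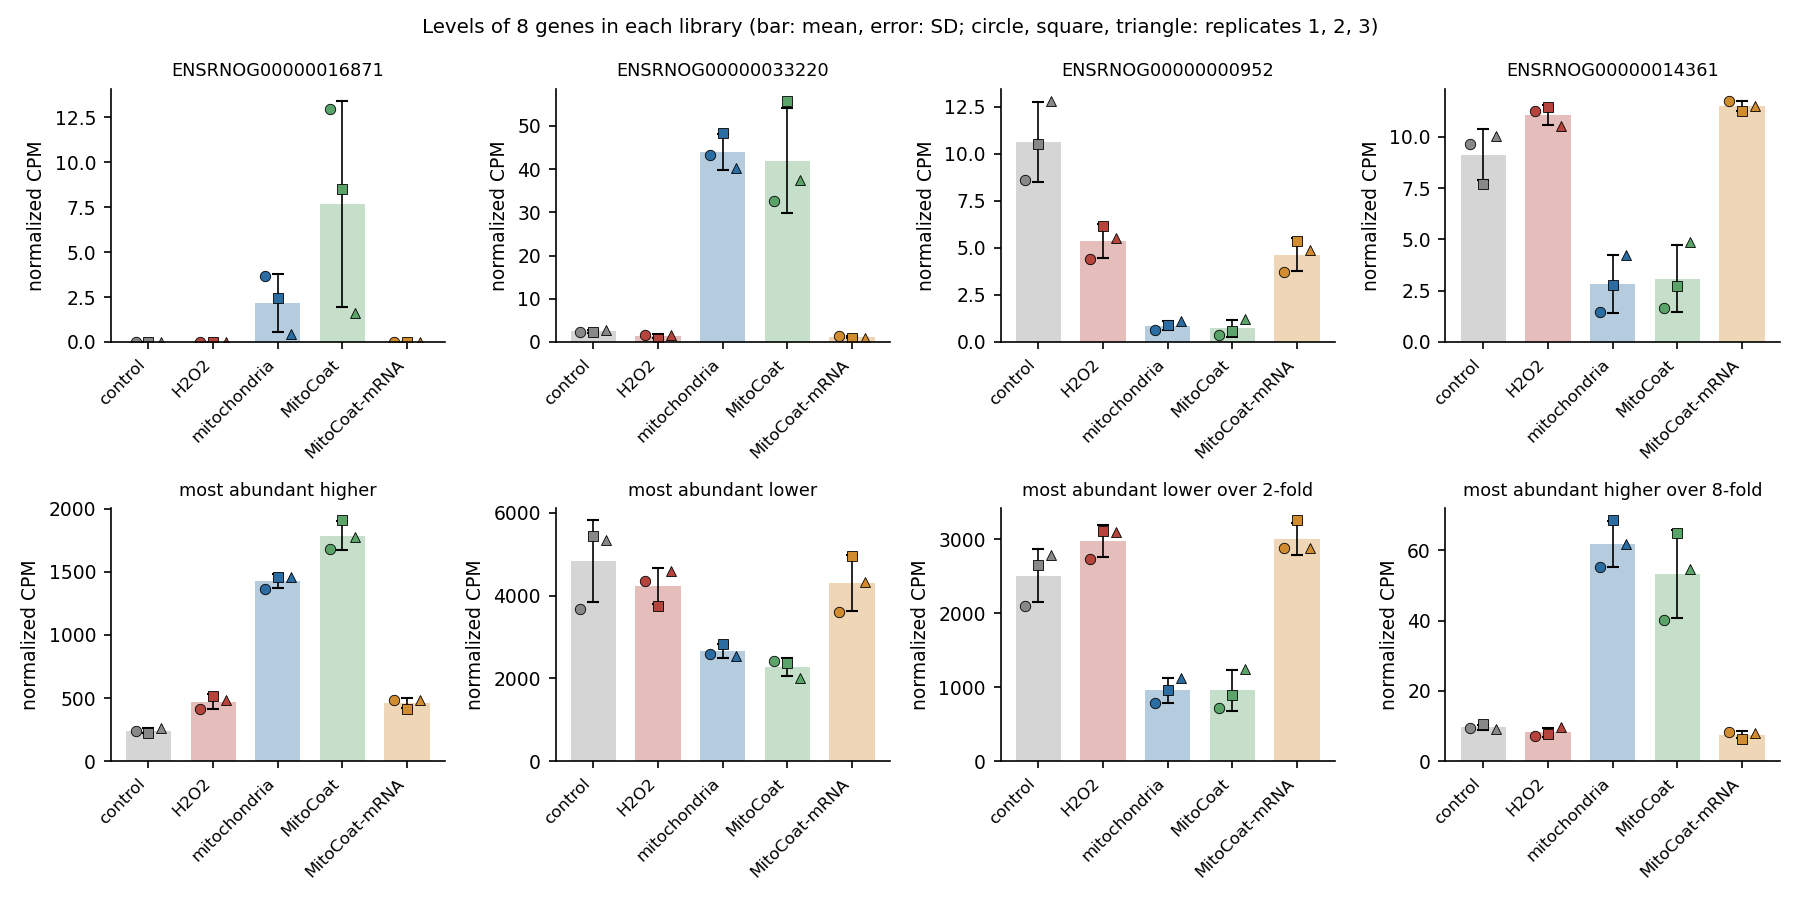
Normalized CPM of 8 genes in all 15 libraries, as bars for the mean, error bars for the SD and points for replicates 1 to 3 of each group; the y axes start at 0 and differ between panels. In each panel the 3 mitochondria and 3 MitoCoat libraries are all above or all below the 3 MitoCoat-mRNA libraries, although the organelle arms can differ in height, as for ENSRNOG00000016871.

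MitoCoat, which carries the organelle and the lipids together, was set beside both arms. With the lipids in both groups, MitoCoat against MitoCoat-mRNA gave 467 called genes (2.98%), 245 higher (1.57%) and 222 lower (1.42%), a comparison that shares the MitoCoat-mRNA libraries with the one above. DESeq2 called 865 genes there and the replicate block 396. Of the 334 higher genes, 330 were tested there, with a median log2 fold change of 0.79, and the 220 lower genes had a median of -0.63, against 0.00 over all tested genes. Both sets were chosen with the same MitoCoat-mRNA libraries, so part of these medians comes with the choice, and how large that part is was not tested. MitoCoat against unmodified mitochondria gave 0 called genes in edgeR (0%), with 779 at an unadjusted p under 0.05 (4.95%), 4 genes called by DESeq2 and 5 with the replicate block. Among the 334 higher genes the median log2 difference of MitoCoat over mitochondria was -0.12, and among the 220 lower genes it was 0.01. At an unadjusted p under 0.05, 58 of the 334 higher genes (17.4%) and 11 of the 219 lower genes tested (5.02%) were past that limit between the organelle arms, against 4.92% of all tested genes, and both sets had been chosen with the mitochondria libraries. The 95% interval of that difference lay within 1.5-fold for 191 of the higher genes (57.2%) and for 185 of the lower genes (84.5%), against 62.2% of all tested genes, and for the others it reached past that size.

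MitoCoat-mRNA against H2O2 alone gave 0 called genes in edgeR (0%), 0 in DESeq2 and 463 at an unadjusted p under 0.05 (2.99%). That limit was passed by 18 of the 311 higher genes tested there (5.79%) and by 17 of the 220 lower genes (7.73%), against 2.91% of the genes tested in both comparisons. Of the same 311 higher genes, 202 had a 95% interval within 1.5-fold (65.0%), and of the 220 lower genes 192 did (87.3%), against 64.1% of all tested genes. Their median log2 differences were -0.04 in both sets. The median level of the 334 higher genes, relative to the mean of the H2O2 libraries, was 0.82, 0.81 and 0.92 on the log2 scale in the 3 mitochondria libraries and 0.00, -0.04 and -0.03 in the 3 MitoCoat-mRNA libraries. For the 220 lower genes the medians were -0.67, -0.62 and -0.63 with mitochondria and -0.07, 0.02 and -0.01 with MitoCoat-mRNA. These shares and medians describe genes that were chosen with the mitochondria and MitoCoat-mRNA libraries and are not a test. Part of their difference from all tested genes can come with that choice, and how large that part is was not tested.

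**Figure D3:**
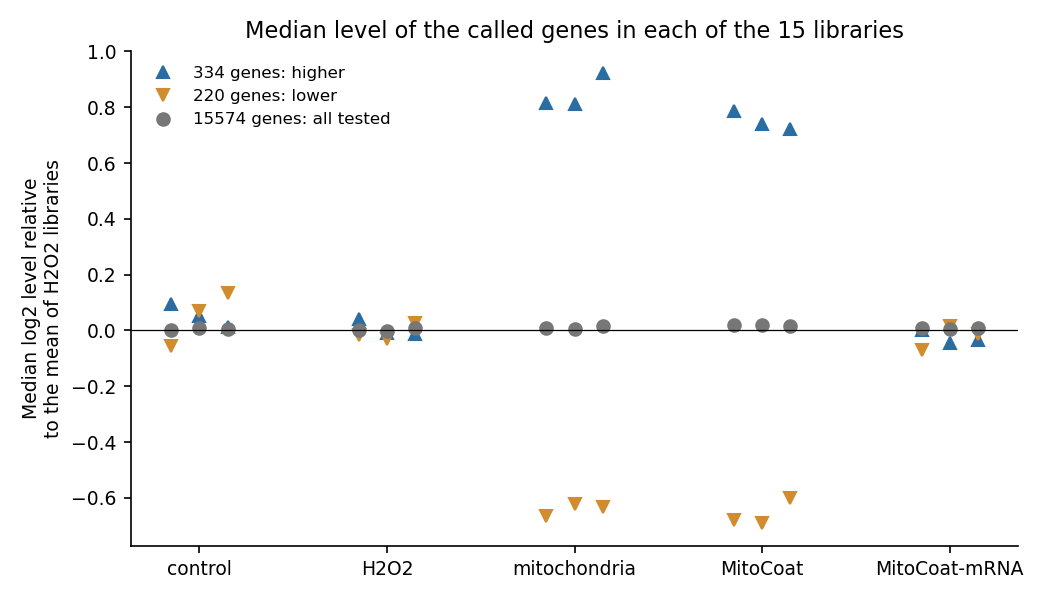
Median log2 level of the 334 higher genes (upward triangles), the 220 lower genes (downward triangles) and all 15574 tested genes (circles) in each of the 15 libraries, relative to the mean of the H2O2 libraries. Mitochondria and MitoCoat libraries lie between 0.72 and 0.92 for the higher genes, and the other 9 libraries lie within 0.10 of zero.

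H2O2 against control shares no library with the comparison and called 1125 of 15650 genes (7.19%), 465 higher (2.97%) and 660 lower (4.22%). Of the 313 higher genes tested there, 36 were called (11.5%), 14 of them higher and 22 lower after H2O2. Of the 220 lower genes, 58 were called (26.4%), 27 higher and 31 lower after H2O2. The lower genes thus held H2O2-responsive genes of both directions. They were also the more abundant set, with a median of 60.3 CPM over the 6 libraries, against 19.2 for the higher genes and 17.5 for all tested genes, and the part of abundance in these shares was not tested.

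A set of transcripts was present with whole mitochondria and without a single count with MitoCoat-mRNA. There were 16 genes with at least 5 counts in each mitochondria library and 0 in each MitoCoat-mRNA library, against 1 gene in the reverse direction. With 10 counts as the minimum there were 10 genes against 0, and with 1 count 110 against 37. Leaving out a library changed the number to 29 without mitochondria replicate 1, 25 without mitochondria replicate 3 and 29 without MitoCoat-mRNA replicate 2. The difference between the arms is what these genes were chosen by. The mitochondria libraries held 618, 659 and 331 counts of the 16 genes in all, and the MitoCoat libraries, which the choice did not use, held 2029, 1429 and 423.

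Of these 16 genes, 10 had 0 counts in every control and H2O2 library as well, and the other 6 had at most 10 counts in any one of them. On chromosome 1, 5 of them lay close together, between positions 79030291 and 79481865. Another 5 were on chromosome 17, at 3820606-3826015, 4045041-4050423, 39188311-39463715, 39563387-39575720 and 42771526-42777186. A further 6 lay elsewhere. Mitochondria replicate 3 was the lowest of its group for 12 of the 16 genes and MitoCoat replicate 3 for 13. The mean was higher with MitoCoat than with unmodified mitochondria for 13. The sums over the 16 genes were 30.9 ± 18.5 and 12.7 ± 5.00 CPM (SD, n = 3), and the libraries of these arms overlapped. By replicate number, the sums were 46.9, 35.3 and 10.6 CPM with MitoCoat and 15.9, 15.2 and 6.91 CPM with mitochondria. MitoCoat was thus the higher at each number, and this difference was not tested. Of the 16, 10 passed the filter on low counts, and as they passed through the mitochondria libraries alone, their calls add no support.

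Higher genes lay side by side in several places, some of them holding genes of the set just described. Joining higher genes at most 200 kb apart gave 15 regions with at least 3 of them, which held 51 of the 334 genes (15.3%). The number of regions depended on the gap, with 9 at 100 kb and 25 at 500 kb, and it was 17 without mitochondria replicate 3. The lower genes, which are fewer, gave 0 such regions at 100 kb and at 200 kb and 3 at 500 kb. Since the regions were built from called genes, the sums that follow are descriptions. Neighbouring copies of one gene can share reads, and how their counts divide is uncertain where the sequences are nearly identical.

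Among regions with counts in every MitoCoat-mRNA library, the widest gap between the arms was in chr12:41200718-41363161, where 3 of 3 tested genes, of 6 annotated, were higher. Their summed level was 55.8, 64.0 and 54.9 CPM with mitochondria and 1.70, 1.28 and 1.62 CPM with MitoCoat-mRNA, 37.9-fold apart. Of the 3, the gene at chr12:41340815-41363161 had 0 counts in every MitoCoat-mRNA library and passed the filter through the mitochondria libraries alone, so its call adds no support. ENSRNOG00000033220 lies here and made up most of the sum. In chr11:37891156-38103290, 3 of 3 tested genes were higher as well, with sums of 168, 186 and 164 CPM against 29.5, 27.0 and 30.0 CPM. Both regions were even among the mitochondria libraries.

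Chromosome 20 held 3 of the 15 regions with 11 genes. In chr20:3167079-3233694 all 5 tested genes were higher, with a sum of 77.0 ± 2.36 CPM with mitochondria and 32.4 ± 2.12 with MitoCoat-mRNA. In chr20:3973420-3993769 all 3 were, with 164 ± 3.12 against 89.6 ± 5.17 CPM. In chr20:5467942-5485926 it was 3 of 4, with 172 ± 3.52 against 116 ± 5.11 CPM. The sums differed 1.49-fold to 2.38-fold. For comparison, 3.95% of the tested genes of chromosome 20 were higher and 0.658% lower, against 2.14% and 1.41% of all tested genes.

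Other regions also held tested genes that were not called. In chr15:34282936-34439861, 4 of 13 tested genes were higher (147 ± 3.25 against 70.4 ± 4.87 CPM), and in chr3:163787101-164425910 it was 4 of 15 (390 ± 8.92 against 257 ± 10.3 CPM). In chr8:21890319-22057209 it was 3 of 11, with sums of 227 ± 20.2 against 140 ± 17.3 CPM. In chr15:33121273-33428973, 3 of 11 were higher and 1 was lower, the single lower gene in any of the 15 regions. In chr10:87959408-88050622, 4 of 6 were higher, at 8.94 ± 0.887 against 2.88 ± 0.631 CPM. Of these 4, the gene at chr10:88006179-88009576 had 0.271 ± 0.224 CPM with MitoCoat-mRNA. It would not have passed the filter by the MitoCoat-mRNA libraries alone, so its call adds no support.

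In 3 regions the mitochondria libraries did not behave alike. In chr14:18576355-18862407, 4 of 7 tested genes were higher, with sums of 222, 190 and 547 CPM with mitochondria and 68.3, 40.7 and 33.0 CPM with MitoCoat-mRNA. In chr2:248178389-248409570, 3 of 5 were higher, with 62.2, 59.0 and 173 CPM against 28.8, 25.3 and 23.1 CPM. In chr1:252894663-252946170, 3 of 4 were higher, with 15.2, 25.4 and 38.0 CPM against 3.50, 2.41 and 2.97 CPM. Replicate 3 was the highest mitochondria library in each, by 2.65, 2.85 and 1.87 times the mean of the other 2. It was also the highest MitoCoat library, by 1.67, 1.73 and 1.34 times. In chr1:252894663-252946170 the MitoCoat sums were 13.5, 25.1 and 25.8 CPM, so replicate 3 was hardly above replicate 2 there.

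The reverse held for 2 regions with almost no counts in the MitoCoat-mRNA arm. In chr17:39188311-39575720, 3 of 7 annotated genes passed the filter, through the mitochondria libraries alone, so that their calls add no support. Their sums were 5.35, 4.11 and 0.961 CPM with mitochondria, 20.7, 13.5 and 2.51 CPM with MitoCoat and 0, 2 and 0 counts with MitoCoat-mRNA. In chr1:79396578-79708835, where 3 of 5 annotated genes passed in the same way, the sums were 7.87, 6.91 and 1.75 CPM with mitochondria, 26.9, 17.3 and 5.64 CPM with MitoCoat and 0, 2 and 0 counts with MitoCoat-mRNA. In these regions replicate 3 was the lowest library of both organelle arms.

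**Figure D4:**
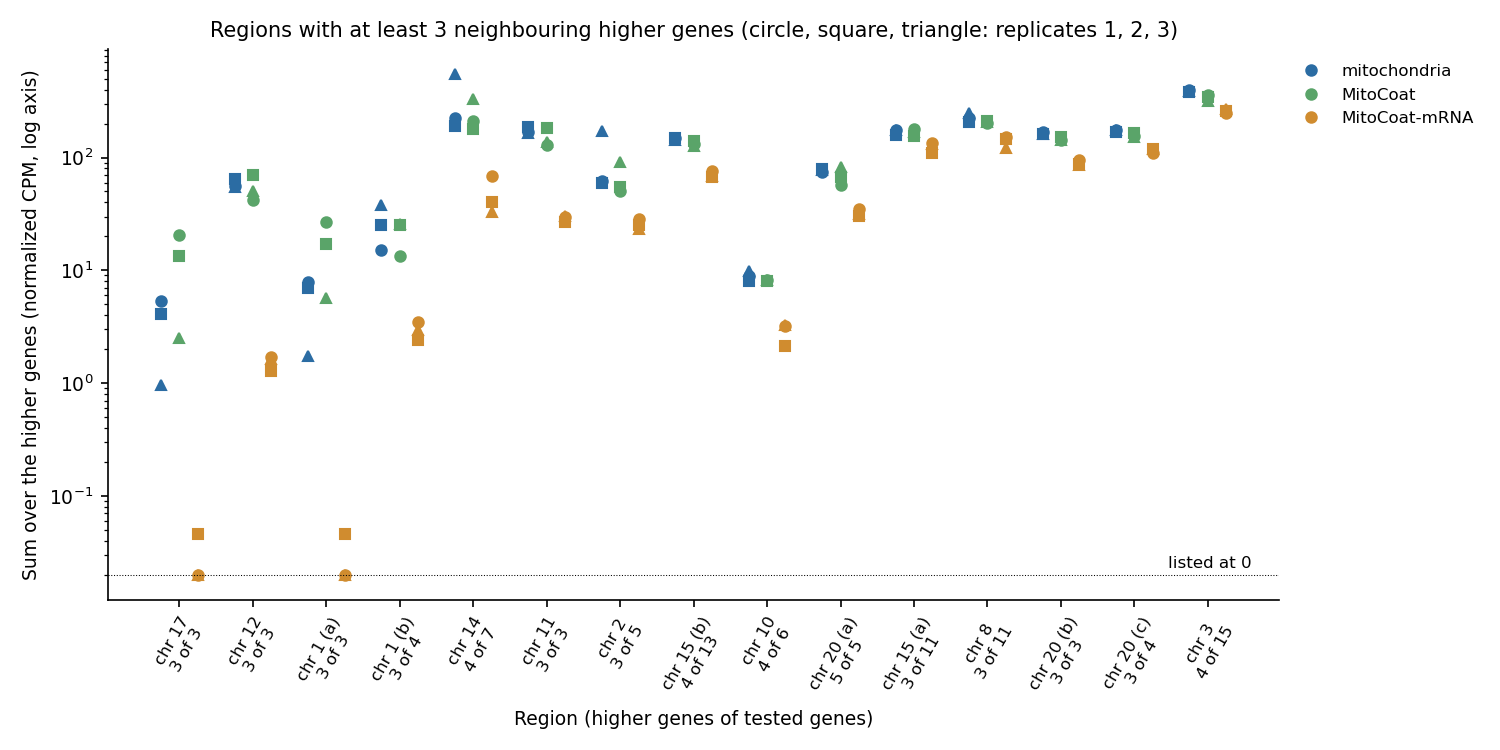
Summed normalized CPM of the higher genes in each of the 15 regions (log axis), for the 3 libraries each of mitochondria, MitoCoat and MitoCoat-mRNA, with circles, squares and triangles for replicates 1, 2 and 3; libraries listed at 0 are drawn on the dotted line. Each region is named by its chromosome and its higher genes of tested genes, in the order of its largest fold change, and the orange points lie below the blue points throughout.

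Over all 334 higher genes, replicate 3 of the mitochondria arm lay within 1.5-fold of the mean of replicates 1 and 2 for 282 (84.4%), close to the 86.5% of all tested genes. It was over 2-fold higher for 16 and over 2-fold lower for 10, against 220 and 589 of 15538 tested genes with counts in all 3 mitochondria libraries. Of the 16, MitoCoat replicate 3 was also above the mean of its other 2 libraries for 15, as it was for 162 of 213 such genes among all tested genes with counts in every mitochondria and MitoCoat library (76.1%). All 10 genes that were over 2-fold lower in replicate 3 had 0 counts in 1 or more MitoCoat-mRNA libraries, a property of 18 of the 334 genes. Across the 334 genes, the log2 ratio of replicate 3 in the mitochondria arm and in the MitoCoat arm had a Pearson's r of 0.73 and a Spearman's rho of 0.46, against 0.22 and 0.15 over all 15461 such tested genes. These are descriptions across genes that share their libraries and are not independent replicates, and libraries of one number shared deviations over all genes. Of the 16 genes over 2-fold higher in replicate 3, 14 were over 2-fold higher than with MitoCoat-mRNA and had counts in every MitoCoat-mRNA library.

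**Figure D5:**
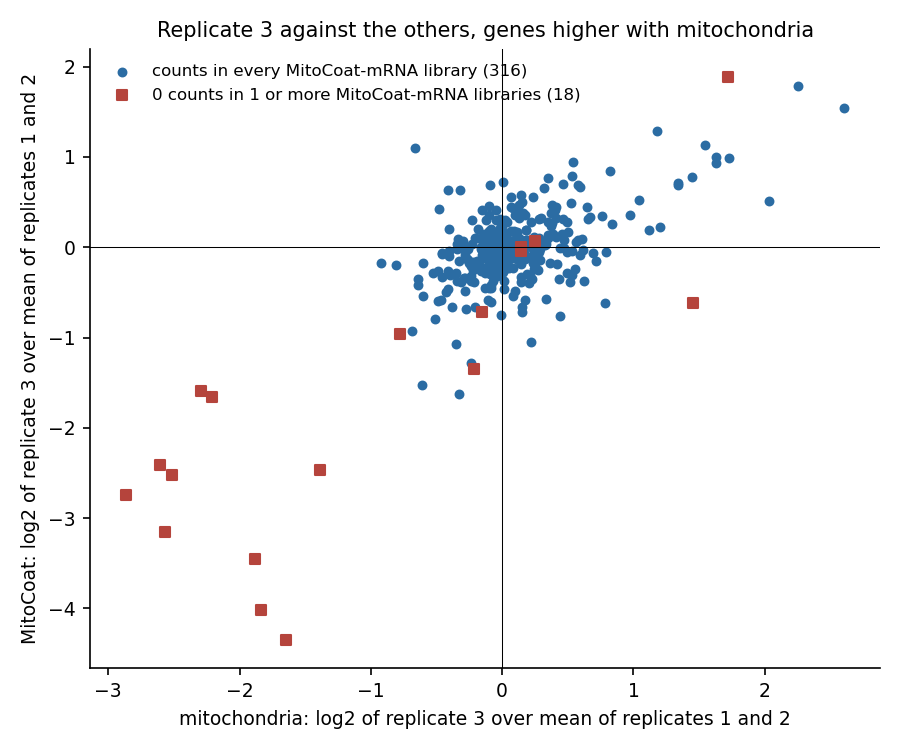
For each of the 334 higher genes, the log2 ratio of replicate 3 to the mean of replicates 1 and 2 with unmodified mitochondria (x axis) and with MitoCoat (y axis); squares are the 18 genes with 0 counts in 1 or more MitoCoat-mRNA libraries. Of these 18 squares, 10 lie to the left of -1 on the x axis, while most circles lie near the centre.

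No difference between the arms was detected in genes of the mitochondrial chromosome. The share of counts on genes of the mitochondrial chromosome was 3.18%, 3.47% and 3.35% with unmodified mitochondria and 4.20%, 3.27% and 2.81% with MitoCoat-mRNA. The mitochondria libraries lay inside the range of the others, and the difference of -0.0920 percentage points had an exact two-sided permutation p of 0.9, where 3 against 3 libraries allow no p below 0.1. Without MitoCoat-mRNA replicate 1 the difference turned to 0.297 percentage points. None of the 13 tested mitochondrial genes of at least 200 bases was called (0 of 13), with log2 fold changes from -0.32 to -0.01, all of them below 0. The smallest edgeR adjusted p was 0.621, and the 95% intervals together ran from -0.82 to 0.43. Neither test paired libraries by number, and values of these genes with the replicate block are not given here.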

How the data were processed

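Per the labels and the study's methods, the authors removed adapters with Trimmomatic 0.36, used STAR 2.5.2b for alignment to Rnor 6.0 (Ensembl annotation) and counted uniquely mapped reads on exons with featureCounts of Subread 1.5.2. They deposited these counts without normalization, 1 file for each of 15 libraries. The labels describe RNA of mitochondria-enriched fractions, whereas in the study's text the astrocytes were profiled, which is taken as true here. 1 further file, a copy of that of mitochondria replicate 2, was not used.

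Counts were analysed with edgeR 4.0.16 in R 4.3.3 (filterByExpr, TMM, quasi-likelihood F test, two-sided) on the 6 libraries of each comparison, with Benjamini-Hochberg adjustment over all tested genes and a threshold of 0.05. Standard errors and 95% intervals were derived from the F statistic. CPM values were normalized over all 15 libraries, with 0.1 added for medians on the log2 scale. Replicate numbers were taken to pair the libraries in the replicate block alone. The reason was that the deviations of all 3 same-number pairs correlated (0.228, 0.150 and 0.264 over 16631 genes). Those of other pairs ranged from -0.195 to -0.0407. Deviations were taken from each group's mean, so positive values for same-number pairs bring negative values for the others. The main fit, with its standard errors, intervals and p-values, did not use this pairing. No 2 libraries of an arm were copies, since their variance was 10.6 to 48.2 times that of counting. Alternatives were DESeq2 1.42.0, all 15 libraries in one fit, RLE size factors, other filters, the block, a gene length offset (loess span 0.3), each library left out and halved counts, the last chosen after seeing the data, as were the regions, the limit of 6 counts and the fold classes by the filter of one arm. The rule for named genes took the largest changes in each direction among called genes whose arms did not overlap and whose mean reached 1 CPM, limited to 2 identifiers each way because 0 of 32552 identifiers matched a name. It gave ENSRNOG00000016871 and both lower genes, whereas ENSRNOG00000033220, rank 4 among the increases, was chosen after its values were seen, and symbol lists were not analysed here. The genes, lists and tests were chosen with earlier results of these data known.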

Additional observations from a re-analysis of the deposited data

How the results depend on the processing

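The number of calls moved between alternatives. No called gene's fold change took the other sign where the gene was tested, which for genes whose arms do not overlap is no sign of stability. DESeq2 called 504 higher and 405 lower genes on the 6 libraries and 500 and 363 with all 15 libraries in one fit. The replicate block gave 652 higher and 489 lower genes, and the block with the gene length offset 517 and 674, which again turned the split towards lower genes (43.4% higher). Leaving out each library in turn gave 175 to 372 higher and 95 to 248 lower genes. The blocked fit changed no call of the 3 genes given by identifier that had counts in both arms. RLE size factors, other filters and halved counts left both numbers within 1.5 times (302 to 444 higher, 217 to 298 lower), and 242 higher and 181 lower genes were called in every alternative that kept all 6 libraries. The 16 genes present with mitochondria alone became 110 at a minimum of 1 count, 10 at a minimum of 10 counts, 26 when up to 2 counts in the other arm were allowed, and 19 to 29 with a library left out. MitoCoat against MitoCoat-mRNA gave 865 genes in DESeq2, and MitoCoat against unmodified mitochondria gave 4 in DESeq2 and 5 with the replicate block. The difference in mitochondrial share ranged from -0.401 to 0.297 percentage points with a library left out and changed sign, to 0.297, without MitoCoat-mRNA replicate 1. The cause of these shifts was not tested. Low counts were mostly even in every library (93.4% to 97.7% of counts from 1 to 20), so a count of 2 may stand for 1 fragment, and small counts are less precise than their size.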

Other observations

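The structure of the called genes is given as a description, without a test. The median exonic length was 2659 bases for the 334 higher genes, 3117 bases for the 220 lower genes and 2266 bases for all 15574 tested genes. Genes with at most 3 exon blocks made up 14.1% of the higher set and 25.0% of the lower set, against 20.7% of all tested genes, and 41.2% of the 34 genes that fell over 2-fold. The median genomic span was 16355 bases for the higher and 27435 bases for the lower genes, against 18970 bases for all tested genes. Higher genes over 2-fold were mostly low in level, with a median of 5.61 CPM over the 6 libraries.

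The X chromosome held few called genes, 1 higher (0.190%) and 1 lower (0.190%) of 527 tested, whereas chromosome 10 held 46 higher (3.51%) and 14 lower (1.07%) of 1312. Of the higher genes, 58 overlapped another gene model (17.4%), as did 32 of the lower genes (14.5%) and 22.7% of all tested genes, and the counts of such genes are uncertain where the models share exons.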
